A study of Mus musculus with 12 samples.

Results

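The genes that carry T cells into and out of the lymph node (LN), together with Cd44, were examined in sorted LN T cells. They are S1pr1, S1pr4, Gpr183, Selplg, Cd44 and Cnr2, taken from the deposited count table by gene symbol. All 6 were found among 49585 genes in the table, and all 6 passed the filter on low counts that left 13118 genes for testing. RNA-seq compared 4 groups with 3 samples each: CD4+ and CD8+ T cells of C57BL/6 (B6) mice, and from CD8Dual mice the T cells sorted as CD8.1+ or as CD8.2+. The labels also call this strain 8in4. CD8Dual mice are homozygous and make no CD4: both of their co-receptors are CD8, one expressed from the altered Cd4 locus and carrying the CD8.1 alpha chain with a CD8 beta chain, the other from the unaltered Cd8 locus and carrying CD8.2. All mice were males of 6 to 10 weeks, and each sample was RNA from pooled sorted cells, so that the spread between samples is that between pools. Nothing in the labels says which mice went into which pool.

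The labels describe the sort by TCR beta and a surface marker of naive cells for every group, whereas the study's methods add a CD44- gate. CD44 is the surface receptor whose low level marks naive cells. The levels of these genes therefore serve as a check of the naive gate in each group. mRNA need not follow surface protein, and in sorted bulk samples a higher level per cell and more cells of a higher-expressing type cannot be told apart.

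T cells reach the LN from blood through selectins and chemokine receptors. They leave it by following sphingosine 1-phosphate (S1P), which is high in lymph and blood and low in tissue. S1PR1, encoded by S1pr1, is the receptor that T cells need for this exit, and S1PR4 is a second S1P receptor of lymphocytes. GPR183, also called EBI2, responds to oxysterols and positions activated T and B cells in the outer zones of lymphoid tissue. PSGL-1, encoded by Selplg, is the protein scaffold that binds P-selectin once it carries the right sugars. CD44 binds hyaluronan and is raised on memory, effector and regulatory T cells. CB2, encoded by Cnr2, is the cannabinoid receptor of leukocytes.

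None of the 6 genes lies on chromosome 6, which holds Cd4 and Cd8a. On GRCm38 (mm10) with the GENCODE M21 annotation, S1pr1 lies at chr3:115710433-115715072, S1pr4 at chr10:81497747-81500132, Gpr183 at chr14:121952551-121965195, Selplg at chr5:113818536-113832644 and Cd44 at chr2:102811141-102901665, all on the minus strand. Cnr2 lies on the plus strand at chr4:135895394-135920207. Gpr183 sits within the span of Ubac2 on the opposite strand, but no exon of Ubac2 overlaps an exon of Gpr183. Cd44 has 9 annotated transcripts, which the deposited counts do not separate, so the values below cover all its splice forms.

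The regulatory sequence before the annotated start is shown from RefSeq (GRCm38.p6), since the results turn on how differently these genes were expressed in the same cells. The table of RefSeq promoters used here matched 4 of 6 members, S1pr4, Gpr183, Cd44 and Cnr2, and each window is the 250 bases before the start. Cnr2 has 2 annotated starts. The windows lie at chr10:81500138-81500387 (S1pr4), chr14:121965194-121965443 (Gpr183), chr2:102901666-102901915 (Cd44), chr4:135894939-135895188 and chr4:135911430-135911679 (Cnr2), and are written 5′ to 3′ on the strand of the gene. Capitals mark a match on either strand to CACCC, the core bound by KLF factors such as KLF2, which is known to act on S1pr1.
S1pr4: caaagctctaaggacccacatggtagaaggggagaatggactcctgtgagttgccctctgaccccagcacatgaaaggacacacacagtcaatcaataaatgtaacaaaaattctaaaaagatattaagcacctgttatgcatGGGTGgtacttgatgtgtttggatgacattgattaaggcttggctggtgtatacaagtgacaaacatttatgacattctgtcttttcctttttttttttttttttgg
Gpr183: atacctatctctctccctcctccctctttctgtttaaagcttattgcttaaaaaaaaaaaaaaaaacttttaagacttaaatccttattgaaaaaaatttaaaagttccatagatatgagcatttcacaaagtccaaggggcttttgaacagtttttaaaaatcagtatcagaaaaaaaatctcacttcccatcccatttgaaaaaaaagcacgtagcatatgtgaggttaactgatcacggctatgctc
Cd44: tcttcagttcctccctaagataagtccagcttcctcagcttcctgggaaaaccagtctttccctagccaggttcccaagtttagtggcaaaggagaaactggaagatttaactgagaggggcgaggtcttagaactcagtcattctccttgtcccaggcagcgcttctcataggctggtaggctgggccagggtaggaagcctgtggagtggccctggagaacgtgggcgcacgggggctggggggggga
Cnr2, first start: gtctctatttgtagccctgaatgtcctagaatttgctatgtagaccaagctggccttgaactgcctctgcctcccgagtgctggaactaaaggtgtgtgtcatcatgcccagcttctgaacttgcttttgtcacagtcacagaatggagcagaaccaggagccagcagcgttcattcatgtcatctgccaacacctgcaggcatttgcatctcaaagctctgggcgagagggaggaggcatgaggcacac
Cnr2, second start: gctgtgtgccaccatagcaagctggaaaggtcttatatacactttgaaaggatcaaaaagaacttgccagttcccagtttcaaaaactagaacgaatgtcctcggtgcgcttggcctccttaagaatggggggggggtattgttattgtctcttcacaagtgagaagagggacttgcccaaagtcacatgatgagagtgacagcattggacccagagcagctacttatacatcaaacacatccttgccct
A match to CACCC was present in 1 of 5 windows, that of S1pr4, against 52.0% of all 32851 windows of the same length. The core of RUNX sites, searched as TGTGGT or TGCGGT on both strands, was present in 0 of 5 windows and in 18.6% of all windows. These are matches of letters and carry no measurement of binding.

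The count table held 18667474 to 37110502 counts per sample, and levels are given as counts per 1000000 counts (CPM) after scaling for library composition. A count of 3, taken as the floor, was worth 0.0875 to 0.167 CPM, and every member had at least 735 counts in every sample. Cd4 was at 908 to 1004 CPM in the B6 CD4+ samples, 47.2 to 51.5 CPM in CD8.1, 1.11 to 1.79 CPM in CD8.2 and 0.109 to 0.337 CPM in B6 CD8+ samples. Cd8a was at 1390 to 1479 CPM in B6 CD8+ and 1432 to 1492 CPM in CD8.2 samples, against 179 to 201 CPM in CD8.1 and 0.682 to 1.49 CPM in B6 CD4+ samples. All 12 T cell defining genes were detected in every sample. Replicate 1 of CD8.1 stood apart from the other two of its group. Its summed level was 7120 CPM for the T cell defining genes and 6426 CPM for the naive T cell genes, against at least 8202 and 7114 CPM in the others, and calls of the 6 genes that change without it are given with and without it.

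By group mean per kilobase of annotated exon, S1pr1 was the highest of the 6 genes in every group and Cd44 the lowest. S1pr1 stood at 212 to 307 CPM per kilobase in the 4 group means, followed by Selplg at 109 to 174 and S1pr4 at 86.6 to 98.9. Gpr183 stood at 19.2 to 51.1, Cnr2 at 9.24 to 22.6 and Cd44 at 5.17 to 10.6 CPM per kilobase. Gpr183 was above Cnr2 in B6 CD4+, CD8.1 and CD8.2 T cells, whereas Cnr2 was above Gpr183 in B6 CD8+ T cells. In all 4 groups Cd44 was thus detected at a low level beside the receptors for egress.

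**Figure D1:**
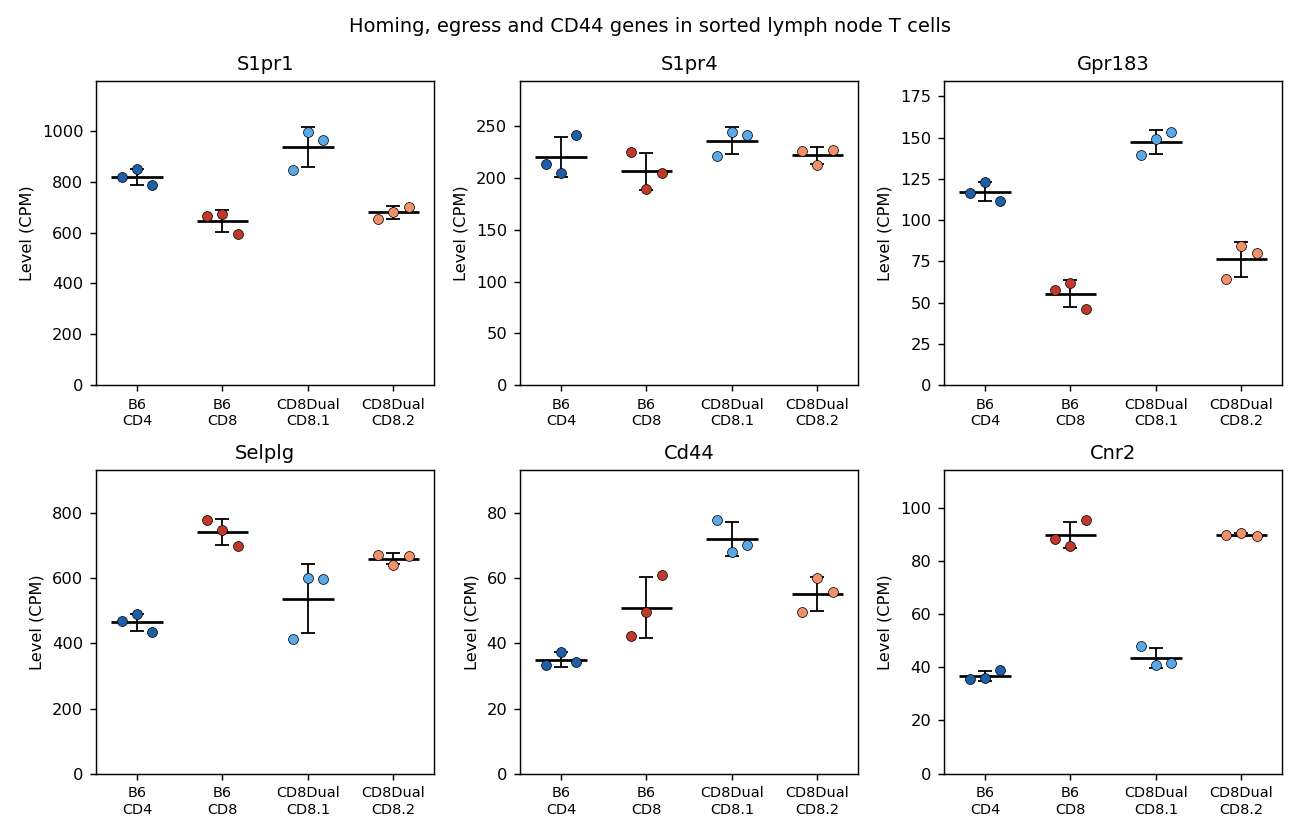
Level of each of the 6 genes in CPM (vertical axis from 0) in the 4 groups; points are the 3 samples of a group in order of replicate number, the horizontal line is the group mean and the bar 1 SD. The CD4-side groups (B6 CD4 and CD8Dual CD8.1) lie above the CD8-side groups for S1pr1 and Gpr183 and below them for Cnr2, while Cd44 is lowest in B6 CD4 and highest in CD8Dual CD8.1.

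S1pr1, the egress receptor, was higher in the CD4-side population of each strain. It was at 820, 851 and 788 CPM in the B6 CD4+ samples and at 664, 675 and 595 CPM in the B6 CD8+ samples. The CD8.1 samples were at 848, 998 and 963 CPM and the CD8.2 samples at 654, 683 and 702 CPM. Every CD4-side sample lay above every CD8-side sample of either strain.

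The difference was 1.27-fold in B6 mice (log2 fold change 0.35, SE 0.0766, adjusted p = 0.00339). Every adjusted p given here is from the quasi-likelihood test of edgeR, adjusted over all genes tested by the Benjamini-Hochberg method. In CD8Dual mice it was 1.38-fold (log2 fold change 0.46, SE 0.0766, adjusted p = 0.000343). The group means ran from CD8.1 (936 ± 78.0 CPM, SD) through B6 CD4+ (820 ± 32.0) and CD8.2 (680 ± 24.4) to B6 CD8+ (645 ± 43.3). Of the 3 neighbouring pairs in this order, only B6 CD4+ and CD8.2 differed (adjusted p = 0.0163). CD8.1 exceeded B6 CD4+ T cells by 0.19 on the log2 scale, with a 95% confidence interval of 0.03 to 0.36 and an adjusted p of 0.112, and by 0.25 with an adjusted p of 0.0170 without replicate 1 of CD8.1. The lineage difference itself differed by 0.12 between the strains (interval -0.11 to 0.35).

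S1pr4 did not pass the test in any comparison. Its levels were 214, 205 and 242 CPM in B6 CD4+, 225, 190 and 205 CPM in B6 CD8+, 221, 245 and 242 CPM in CD8.1 and 226, 212 and 227 CPM in CD8.2 samples. All 4 groups overlapped. The log2 difference between CD4+ and CD8+ T cells of B6 mice was 0.09, with an interval of -0.08 to 0.27, and that within CD8Dual mice was 0.09, with an interval of -0.09 to 0.26. A lineage difference of S1pr4 larger than about 0.27 on the log2 scale was thus outside the intervals in both strains.

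Gpr183, the oxysterol receptor, showed the largest excess on the CD4 side among the 6 genes. Its levels were 116, 123 and 112 CPM in the B6 CD4+ samples against 57.9, 62.0 and 46.3 CPM in the B6 CD8+ samples. The CD8.1 samples stood at 139, 149 and 154 CPM and the CD8.2 samples at 64.4, 84.2 and 79.8 CPM. No 2 groups overlapped, and within each lineage the CD8Dual samples were the higher ones.

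CD4+ exceeded CD8+ T cells 2.11-fold in B6 mice (log2 fold change 1.08, SE 0.111, adjusted p = 2.73e-06). CD8.1 exceeded CD8.2 T cells 1.94-fold (log2 fold change 0.95, SE 0.110, adjusted p = 1.11e-05), and the strains differed in this by -0.13 on the log2 scale (interval -0.46 to 0.21, adjusted p = 0.772). Between strains, CD8.2 was above B6 CD8+ T cells 1.37-fold (log2 fold change 0.46, SE 0.111, adjusted p = 0.0212). This call was lost on leaving out replicate 1 or 3 of B6 CD8+ or replicate 2 or 3 of CD8.2, with adjusted p-values of 0.0582 to 0.107. CD8.1 was above B6 CD4+ T cells by 0.33 on the log2 scale, with an adjusted p of 0.0580, and it passed by DESeq2 (0.0328), with no filter on low counts (0.00921) and without replicate 1 of CD8.1 (0.0384), replicate 3 of B6 CD8+ (0.0396) or replicate 1 of CD8.2 (0.0463). In the order CD8.1, B6 CD4+, CD8.2 and B6 CD8+, B6 CD4+ differed from CD8.2 (adjusted p = 0.00058) and CD8.2 from B6 CD8+ T cells, while the first pair did not pass the test.

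Gpr183 and Cnr2 are also expressed by B cells, so the B cell genes are given beside them. All 12 of these were tested, and their summed level was 589 to 635 CPM in B6 CD4+, 664 to 692 CPM in B6 CD8+, 750 to 940 CPM in CD8.1 and 629 to 759 CPM in CD8.2 samples. Most of that sum was Ighm, at 454 to 639 CPM. Cd79a, a part of the B cell receptor complex, was at 21.7 to 27.8 CPM in B6 CD4+, 11.2 to 14.1 CPM in B6 CD8+, 35.8 to 55.5 CPM in CD8.1 and 13.3 to 31.6 CPM in CD8.2 samples. The part of B cell RNA in the levels of Gpr183 and Cnr2 was not tested. The 3 CD8.1 samples were above all others for Cd79a, and in B6 mice it was lower in every CD8+ than in every CD4+ sample. Cd79b, its partner, went the other way in B6 mice, at 18.8 to 24.1 CPM in CD4+ and 33.7 to 38.2 CPM in CD8+ samples. Of the 12 B cell genes, 6 were higher and 2 lower in B6 CD4+ relative to CD8+ samples, where 23.1% of all genes passed. Relative to B6 CD4+ samples, 3 were higher and 0 lower in CD8.1, where 12.8% of all genes passed. Relative to B6 CD8+ samples, 4 were higher and 0 lower in CD8.2, where 7.94% of all genes passed.

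Selplg, the P-selectin ligand scaffold, was higher on the CD8 side in B6 mice. Its levels were 470, 489 and 436 CPM in B6 CD4+ samples against 778, 749 and 700 CPM in B6 CD8+ samples. In CD8.1 samples it was at 414, 599 and 596 CPM, and in CD8.2 samples at 672, 640 and 668 CPM. The lineages did not overlap in either strain, but the CD8.1 samples spread widely, with replicate 1 below all 3 B6 CD4+ samples and the other two above them.

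The B6 difference was 1.60-fold (log2 fold change -0.67 for CD4+ relative to CD8+, SE 0.111, adjusted p = 0.000308). In CD8Dual mice the log2 fold change was -0.30 (SE 0.111, adjusted p = 0.0566), and -0.16 (adjusted p = 0.0726) without replicate 1 of CD8.1. Without replicate 1 of CD8.1 the strains differed in the lineage change by 0.52 (adjusted p = 0.00226), against 0.38 with all samples (interval 0.04 to 0.71, adjusted p = 0.316). The group means fell in the order B6 CD8+ (742 ± 39.4 CPM), CD8.2 (660 ± 17.0), CD8.1 (537 ± 106) and B6 CD4+ (465 ± 26.8), and no neighbouring pair in it passed the test. Without replicate 1 of CD8.1, the difference between CD8.1 and B6 CD4+ samples went from 0.21 (adjusted p = 0.233) to 0.35 (adjusted p = 0.00205).

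Cd44 was lowest in B6 CD4+ and highest in CD8.1 samples, the groups of the CD4 side. Its levels were 33.4, 37.5 and 34.2 CPM in B6 CD4+ samples and 42.4, 49.7 and 61.0 CPM in B6 CD8+ samples. In CD8.1 samples they were 77.8, 67.9 and 70.3 CPM, and in CD8.2 samples 49.5, 60.1 and 55.9 CPM. The 3 CD8.1 samples were the highest of all 12 and the 3 B6 CD4+ samples the lowest, while B6 CD8+ and CD8.2 samples overlapped.

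In B6 mice Cd44 was lower in CD4+ than in CD8+ T cells by 1.45-fold (log2 fold change -0.54, SE 0.118, adjusted p = 0.00304). In CD8Dual mice CD8.1 samples exceeded the CD8.2 ones by 1.31-fold (log2 fold change 0.38, SE 0.116, adjusted p = 0.0211). The second call was lost without replicate 1 of CD8.1 (adjusted p = 0.0580), replicate 1 of CD8.2 (0.117) or replicate 3 of CD8.2 (0.0628), with log2 fold changes of 0.30 to 0.39. CD8.1 exceeded B6 CD4+ T cells 2.05-fold (log2 fold change 1.04, SE 0.118, adjusted p = 8.02e-05), the 41st smallest p of 13118 genes. CD8.2 and B6 CD8+ T cells differed by 0.11 on the log2 scale (interval -0.13 to 0.36, adjusted p = 0.612). The lineage difference of Cd44 thus differed between the strains by 0.92 on the log2 scale (SE 0.165, adjusted p = 0.00601), and this ranged from 0.78 to 1.03 when each sample was left out in turn.

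Markers of other T cell states rose with Cd44 when CD8.1 was set against the B6 CD4+ group, but not in every comparison. Within B6 mice, 9 of 11 regulatory T cell genes were higher in the CD4+ group and 1 lower, where 23.1% of all genes passed. Cd44 was lower in the B6 CD4+ group. Of 11 regulatory T cell genes tested, 10 were higher and 0 lower in the CD8.1 group when set against B6 CD4+ T cells. The median log2 fold change was 1.51, and 12.8% of all genes passed. In the interaction 4 of the 11 passed, all in the direction of Cd44, and 3 by limma-voom. Over all genes 1.87% passed the interaction test. Foxp3, the defining transcription factor of regulatory T cells, was at 32.6, 37.8 and 44.6 CPM in B6 CD4+ samples and at 102, 149 and 168 CPM in CD8.1 samples. It was at 0.182 to 0.529 CPM in B6 CD8+ and 0.809 to 1.46 CPM in CD8.2 samples. The summed level of the regulatory T cell genes was 607 to 692 CPM in CD8.1, 233 to 350 CPM in B6 CD4+, 317 to 348 CPM in B6 CD8+ and 174 to 177 CPM in CD8.2 samples. Itgae, which CD8 T cells also express, made up 234 to 264 CPM of the sum in B6 CD8+ and 99.2 to 102 CPM in CD8.2 samples, against 2.91 to 5.87 CPM in B6 CD4+ samples.

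Of 20 memory and effector genes, 14 were higher and 0 lower in CD8.1 against B6 CD4+ samples, where 12.8% of all genes passed. Their median log2 fold change was 1.37, and 10 passed the interaction test, all in the direction of Cd44. The summed level of the memory and effector genes was 453 to 562 CPM in B6 CD4+, 851 to 1014 CPM in CD8.1, 1561 to 1597 CPM in CD8.2 and 2191 to 2624 CPM in B6 CD8+ samples. This sum was higher in both CD8-side groups than in CD8.1, and in B6 CD8+ samples Ly6c2 alone made up 650 to 930 CPM of it. By gene, 8 were higher and 9 lower in CD8.1 relative to CD8.2 (median log2 fold change -0.0070), where 28.7% of all genes passed. Relative to B6 CD8+ samples the genes again went both ways. Their median there was 0.06, against 0.00079 over all genes tested. Of 12 naive T cell genes, 0 were higher and 4 lower in CD8.1 against B6 CD4+ samples, where 12.8% of all genes passed. Their summed level was 6426 to 7338 CPM in CD8.1 and 7199 to 7793 CPM in B6 CD4+ samples. In B6 CD8+ samples it was 6113 to 6702 CPM and in CD8.2 samples 6033 to 6152 CPM. The part of regulatory or memory T cells in the Cd44 level was not tested. Over all genes tested, the median log2 fold change of CD8.1 relative to B6 CD4+ T cells was 0.0025.

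**Figure D2:**
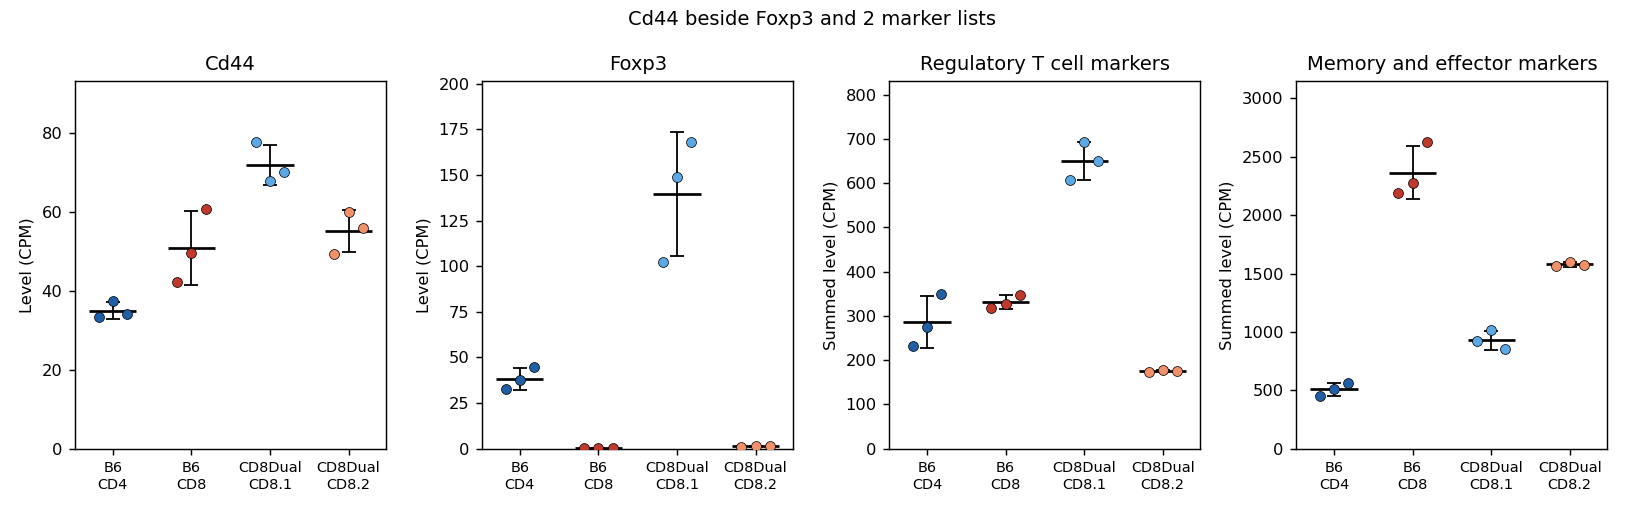
Cd44, Foxp3, the summed regulatory T cell genes and the summed memory and effector genes in each sample (CPM, vertical axes from 0), with points for the 3 samples of a group, a line for the mean and a bar for 1 SD. Cd44, Foxp3 and the regulatory T cell sum are all highest in the 3 CD8Dual CD8.1 samples, while the memory and effector sum is highest in B6 CD8 (2191 to 2624 CPM).

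Genes of further cell types were compared as well. Natural killer, NKT and gamma delta T cell genes summed to 16.7 to 19.7 CPM in CD8.1 samples, against 10.0 to 15.1 CPM in the others. Zbtb16, the defining factor of NKT cells, had 0 counts in all 6 B6 samples and was at 0.191 to 1.02 CPM in CD8.1 samples, and the NK cell gene Ncr1 was at no more than 0.345 CPM in any sample. Myeloid and dendritic cell genes summed to 101 to 115 CPM in CD8.1 samples and to 68.8 to 85.8 CPM in B6 CD4+ samples, no more than 86.6 CPM in B6 CD8+ samples and 82.3 to 107 CPM in CD8.2 samples. Of 9 of these genes tested, 4 were higher and 0 lower in CD8.1 when set against B6 CD4+ samples, where 12.8% of all genes passed. The median log2 fold change of the 9 was 1.61. Of the myeloid sum Cst3 made up 62.2 to 94.1 CPM, and the macrophage gene Adgre1 was at 0 to 0.833 CPM. Endothelial and stromal genes, at 101 to 207 CPM, were highest in B6 CD4+ samples. Of these Pecam1, which T cells also express, made up 101 to 206 CPM, and the endothelial gene Cdh5 was at 0.0292 to 0.808 CPM. The part of these cells in the level of Cd44 was not tested.

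Cnr2, the cannabinoid receptor CB2, was the member with the largest lineage difference. It was at 35.7, 35.9 and 38.8 CPM in B6 CD4+ samples against 88.1, 85.7 and 95.2 CPM in B6 CD8+ samples. The CD8.1 samples stood at 47.9, 41.0 and 41.6 CPM and the CD8.2 samples at 89.8, 90.4 and 89.3 CPM. The CD8-side samples of both strains overlapped and lay above all CD4-side samples.

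CD4+ was below CD8+ 2.44-fold in B6 mice (log2 fold change -1.28, SE 0.0799, adjusted p = 6.46e-09) and CD8.1 below CD8.2 2.07-fold in CD8Dual mice (log2 fold change -1.05, SE 0.0794, adjusted p = 9.01e-08). The difference between these was 0.24 (interval -0.00041 to 0.48, adjusted p = 0.377). CD8.2 and B6 CD8+ T cells were at 89.8 ± 0.542 and 89.6 ± 4.93 CPM, a log2 difference of 0.0034 (interval -0.16 to 0.17). CD8.1 was above B6 CD4+ T cells by 0.24 on the log2 scale (adjusted p = 0.0612), and by 0.15 (adjusted p = 0.142) without replicate 1 of CD8.1.

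Over the 6 genes, 5 passed the test between CD4+ and CD8+ T cells of B6 mice, 2 higher and 3 lower in CD4+. Of all genes tested 23.1% passed, 11.4% as higher and 11.7% as lower. Within CD8Dual mice 4 passed, 3 higher and 1 lower in CD8.1, against 28.7% of all genes, 14.9% as higher and 13.8% as lower. Between strains 1 gene passed in each lineage, Cd44 in CD8.1 against B6 CD4+ T cells (12.8% of all genes) and Gpr183 in CD8.2 against B6 CD8+ T cells (7.94% of all genes). In the interaction 1 gene passed, Cd44, where 1.87% of all genes did. The medians of the 6 log2 fold changes were -0.22 in B6 mice, 0.24 in CD8Dual mice, 0.22 for CD8.1 against B6 CD4+ and 0.09 for CD8.2 against B6 CD8+ T cells, while over all genes tested no median was further than 0.0047 from 0. By the study's definition of a differentially expressed gene, more than 5-fold with an unadjusted p under 0.05, 0 members passed in these 5 comparisons, where 3.29%, 3.32%, 0.61%, 0.579% and 1.16% of all genes did. At an unadjusted p under 0.05 without a fold limit, 5, 5, 4, 1 and 2 members passed in the same order. These comparisons share samples and are not independent of each other.

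**Figure D3:**
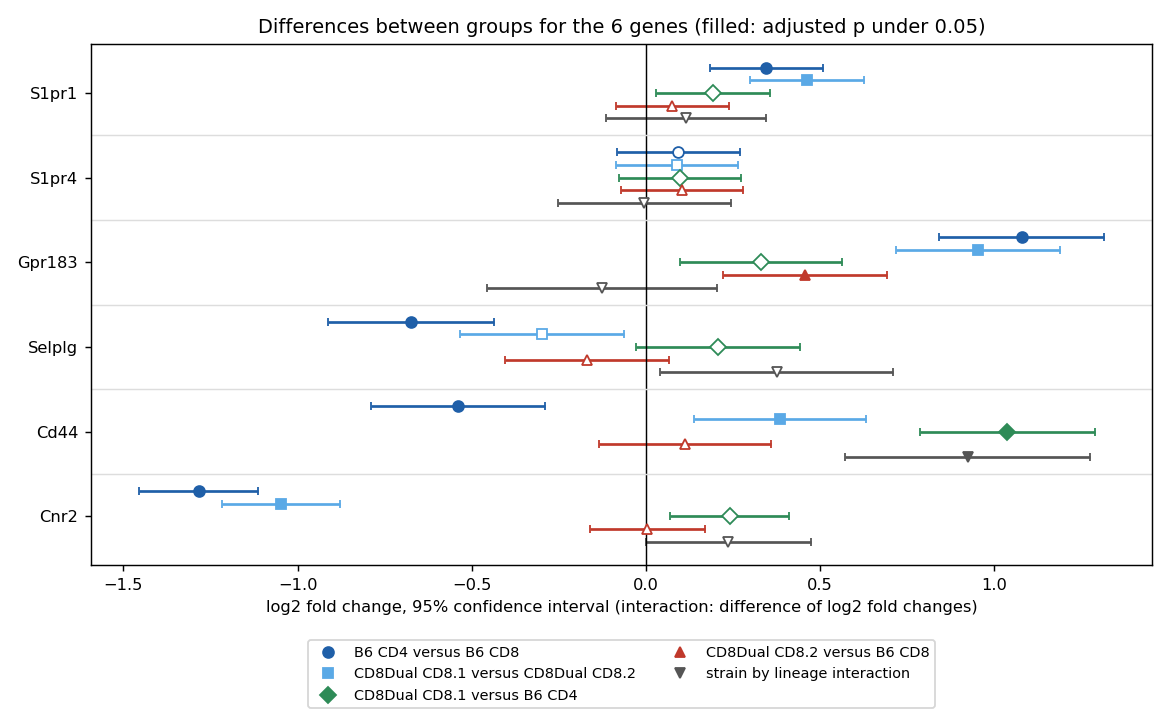
log2 fold change of each gene (horizontal axis) with its 95% confidence interval in the 4 comparisons of groups, and the difference between strains of the lineage change (interaction). Filled symbols have an adjusted p under 0.05; Cd44 alone has lineage changes of opposite sign in B6 (-0.54) and CD8Dual (0.38) mice.

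The genes around these receptors were examined as 4 lists with 70 genes in all, of which 46 could be tested. In B6 mice 6 were higher and 6 lower in CD4+ than in CD8+ T cells, 26.1% of those tested, and the median log2 fold change was 0.09. In CD8Dual mice 15 were higher and 6 lower in CD8.1, 45.7% of those tested, with a median of 0.13. Over all genes 23.1% and 28.7% passed, with medians of -0.0011 and -0.0047. Against B6 CD4+ T cells, CD8.1 had 5 higher and 3 lower, or 8 of the 46, where 12.8% of all genes passed. Against B6 CD8+ T cells, CD8.2 had 4 higher and 2 lower, or 6 of the 46, where 7.94% of all genes did. In the interaction 2 of the 46 passed, against 1.87% of all genes.

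Among 14 tested genes of LN entry and selectin ligand synthesis, 8 passed in each strain. Over all genes 23.1% passed in B6 and 28.7% in CD8Dual mice. Enzymes that build selectin ligands on scaffolds such as PSGL-1 moved in opposite directions. Gcnt1, which makes the branched core of these sugars, was higher on the CD4 side, with log2 fold changes of 2.25 (SE 0.507, adjusted p = 0.00389) in B6 mice and 2.34 (SE 0.428, adjusted p = 0.000762) in CD8Dual mice, at no more than 4.20 CPM in any sample. St3gal6, a sialyltransferase, was lower on the CD4 side, with log2 fold changes of -1.59 and -1.42, at 17.1 to 19.0 CPM in B6 CD4+ and 46.5 to 64.0 CPM in B6 CD8+ samples. Tpst2, which sulfates tyrosines of proteins, was lower as well (-0.97 and -0.85). Fut7, the fucosyltransferase that completes selectin ligands, was at 0.682 to 1.83 CPM in B6 CD4+, 1.31 to 1.83 CPM in B6 CD8+, 2.66 to 4.11 CPM in CD8.1 and 0.437 to 1.22 CPM in CD8.2 samples. The 3 CD8.1 samples were above all others for Fut7, and its interaction was 2.37 (SE 0.545, adjusted p = 0.0358).

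The counts for S1P signalling and metabolism stand beside 23.1% of all genes in B6 and 28.7% in CD8Dual mice. Among 17 tested genes of this list, 2 were higher and 0 lower in B6 CD4+ than in CD8+ T cells. They were Foxo1, a transcription factor of naive T cells (log2 fold change 0.45, adjusted p = 0.000182), and Sgpp1, an S1P phosphatase (0.27, adjusted p = 0.0166). In CD8Dual mice 7 were higher and 1 lower in CD8.1 T cells. Plpp1 and Plpp2, lipid phosphatases, and Spns2, an S1P exporter, had the largest changes (2.07, 1.44 and 1.37), with Plpp1 and Spns2 at no more than 1.15 CPM in any sample. No gene of this list passed the interaction test by edgeR, DESeq2 or limma-voom, and 0 had an unadjusted p under 0.05. Klf2, which is known to act on S1pr1, was at 378 to 542 CPM over all samples, and Cd69, whose product removes S1PR1 from the cell surface, at 73.1 to 107 CPM. Of the other S1P receptors, S1pr2 was at 6.94 to 12.8 CPM and was higher in CD8.1 within CD8Dual mice (log2 fold change 0.54, adjusted p = 0.00614). S1pr3 and S1pr5 were at no more than 0.310 and 0.873 CPM and were not tested.

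Of 7 tested genes of oxysterol and cannabinoid ligands, 1 was higher and 1 lower in B6 CD4+ T cells, where 23.1% of all genes passed. Within CD8Dual mice 2 were higher and 1 lower in CD8.1, where 28.7% of all genes passed. Gpr55, a receptor that also responds to some cannabinoids, had the same direction as Cnr2. It was at 1.36 to 1.72 CPM in B6 CD4+, 12.7 to 16.1 CPM in B6 CD8+, 3.75 to 4.73 CPM in CD8.1 and 10.6 to 11.8 CPM in CD8.2 samples. No 2 groups overlapped, and its log2 fold changes were -3.23 (SE 0.162, adjusted p = 5.80e-10) in B6 and -1.42 (SE 0.145, adjusted p = 3.04e-06) in CD8Dual mice, with an interaction of 1.81 (SE 0.219, adjusted p = 0.000212). Faah, which breaks down the cannabinoid anandamide, was higher on the CD4 side by 0.62 and 0.54, and Abhd12, a lipid hydrolase, by 0.34 in CD8Dual mice. Ch25h, which makes the precursor of the GPR183 ligand, had 0 counts in all samples, and Cnr1, the other cannabinoid receptor, had at most 2 counts in a sample.

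Of 8 tested genes of hyaluronan and the partners of CD44 at the cytoskeleton, 0 passed in B6 mice by edgeR, DESeq2 or limma-voom, and 1 had an unadjusted p under 0.05. Over all genes 23.1% passed in B6 and 28.7% in CD8Dual mice. Within CD8Dual mice, 1 of the 8 was higher and 1 lower in CD8.1. Tmem2, a cell-surface hyaluronidase also known as Cemip2, was higher by 2.12 (SE 0.345, adjusted p = 0.000284). Its level was low, at 0.596 to 0.787 CPM in CD8.2 and no more than 4.30 CPM in any sample. Rdx, which encodes the membrane linker radixin, was lower (log2 fold change -0.28, SE 0.0868, adjusted p = 0.0267). For this list the interaction count was 0 by edgeR, DESeq2 and limma-voom, with 1 gene at an unadjusted p under 0.05.

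**Figure D4:**
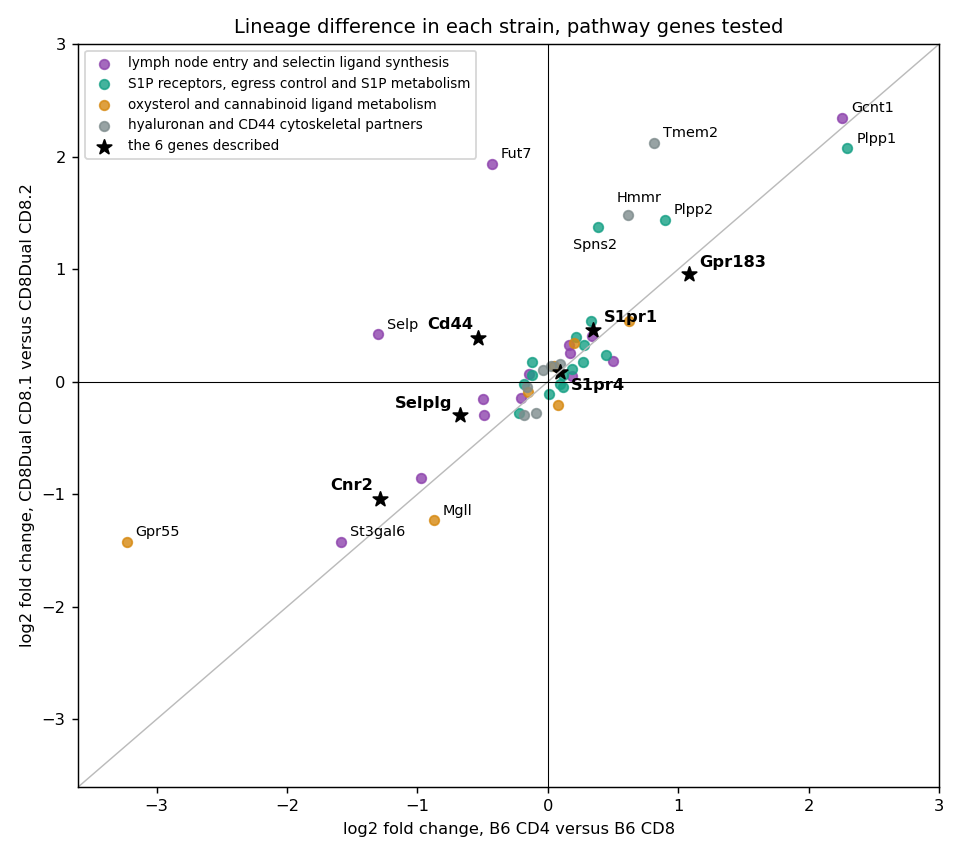
log2 fold change between lineages in B6 mice (horizontal axis) and in CD8Dual mice (vertical axis) for the tested genes of the 4 lists (coloured points, those beyond 1 in either strain are named) and for the 6 genes (black stars). The grey line marks equal change; Cd44 lies in the upper left, with -0.54 in B6 and 0.38 in CD8Dual mice, and Gpr183 and Cnr2 lie near the line at the 2 ends of the range of the 6 genes.

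Genes with the pattern most like that of a member were sought for Gpr183, Cd44 and Cnr2, whose group means spanned at least 1 on the log2 scale. Likeness was the root mean square difference of centred log2 CPM over all 12 samples, among 7978 genes with a mean of at least 10 CPM. For Gpr183 the nearest were Sgms1 (0.149) and Lrig1 (0.162), and for Cnr2 they were Slc25a4 (0.122) and Dpp4 (0.130). Cd44 had no equally close neighbour, its nearest being S100a10 (0.200) and Pctp (0.204). S100a10 stood at 221 CPM in B6 CD4+, 263 CPM in B6 CD8+, 366 CPM in CD8.1 T cells and 270 CPM in those with CD8.2, the same order of groups as Cd44 with the extremes in the same 2 groups.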

How the data were processed

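RNA from 12 samples of sorted mouse LN T cells was sequenced. The study's methods describe total RNA and a SMARTer low-input library kit, and name no poly(A) selection. Per the study's methods and the labels, the authors aligned read pairs of 125 bases to mm10 with STAR and obtained raw counts per gene with RSEM; limma is also named in the processing notes. The deposited values are counts, as whole numbers without normalization, and the use of strand is not given in the sources used here. No column of the table was without a sample.

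Counts were tested with edgeR 4.0.16 in R 4.3.3 (glmQLFit and glmQLFTest, TMM, filterByExpr over the 4 groups, 1 mean per group over all 12 samples), with Benjamini-Hochberg adjustment over 13118 genes and a threshold of 0.05. Each SE was derived from the log2 fold change and the F statistic. The study's fold limit of 5 was an alternative, as were DESeq2 1.42.0, limma-voom 3.58.1, other filters and scalings, replicate blocks and leaving out each sample. The fit was tested on simulated data. The lowest chi-square per gene between replicates was 8.48, so no library was a copy of another. P-values measure the spread between pools, and the 18667474 to 37110502 counts per sample limit low genes.

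Same-numbered B6 samples deviated together over genes (r = 0.126, 0.138 and 0.257, from replicate numbers in the labels), and the block changed no call of the 6 genes in B6 mice. The members and lists were chosen with earlier results of these data known. Named genes were the members, the co-receptor genes Cd4 and Cd8a, up to 3 called genes of largest change per pathway list and strain, those called in the interaction, the leading or defining marker genes, and the 2 nearest genes in pattern. Klf2, Cd69, Itgae, Cd79a, Cd79b, S1pr2, S1pr3, S1pr5, Ch25h and Cnr1 were named after their values were seen. Drawing used matplotlib 3.10.9 under Python 3.11.15. Some genes are not reported here.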

Additional observations from a re-analysis of the deposited data

Results flagged for a closer look

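Cd44 differed between the strains in its lineage difference: log2 fold changes were -0.54 between CD4+ and CD8+ T cells of B6 mice and 0.38 for CD8.1 relative to CD8.2 in CD8Dual mice, and the difference of these, 0.92 (SE 0.165), passed the test of the interaction itself (adjusted p = 0.00601 by edgeR's quasi-likelihood test). All 3 CD8.1 samples were above all 3 CD8.2 samples, and all 3 B6 CD4+ samples were below all 3 B6 CD8+ samples. With each sample left out in turn the 0.92 ranged from 0.78 to 1.03, while the 0.38 lost its call without replicate 1 of CD8.1 or replicate 1 or 3 of CD8.2. A formal test of single outlying samples was not run on groups of 3.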

How the results depend on the processing

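Of the 6 genes, the number that passed between CD4+ and CD8+ T cells of B6 mice went from 5 to 2 with a limit of 2-fold and to 0 with more than 5-fold, and within CD8Dual mice from 4 to 1 and 0. CD8.1 against B6 CD4+ T cells gave 1, and 2 with no filter, 3 by DESeq2 and 0 beyond 5-fold; CD8.2 against B6 CD8+ T cells gave 1, and 2 with only those groups and 0 with either fold limit; the interaction gave 1, and 0 with either fold limit. With each sample left out in turn the counts were 5 to 5, 3 to 5, 1 to 4, 0 to 1 and 1 to 2 in that order, the 4 and the 2 at the upper ends coming without replicate 1 of CD8.1.

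Of the 46 pathway genes tested, the counts that passed were 12, 21, 8, 6 and 2 in the same order. They became 3, 8, 3 and 0 with a 2-fold limit in the first 4, and 1, 1, 0, 0 and 1 beyond 5-fold. With only the groups compared, CD8.1 against B6 CD4+ T cells gave 4 and CD8.2 against B6 CD8+ T cells 11, and DESeq2 gave 4 in the interaction. Left-out samples gave 10 to 18, 14 to 22, 3 to 12, 3 to 8 and 1 to 7, and the 7 came without replicate 1 of CD8.1. CD8.1 against B6 CD4+ T cells gave 3 or 4 without replicate 1 or 2 of B6 CD4+ or replicate 2 of CD8.1, CD8.2 against B6 CD8+ T cells 3 without replicate 3 of CD8.2, and the interaction 1 without replicate 1 or 2 of B6 CD4+, any B6 CD8+ sample, replicate 2 of CD8.1 or replicate 1 or 3 of CD8.2. The signs of 3 differences near 0 changed with a left-out sample: CD8.2 against B6 CD8+ T cells for Cd44 (-0.0127 to 0.24) and Cnr2 (-0.038 to 0.033), and the interaction of S1pr4 (-0.081 to 0.053).

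A replicate block, with the pairing taken from the replicate numbers, gave 5, 5, 1, 1 and 1 of the 6 genes. It brought Selplg within CD8Dual mice to -0.32 (adjusted p = 0.0305) and changed no other call of a member. Same-numbered CD8Dual samples did not all deviate together (r = -0.0039, 0.0905 and 0.119). Selplg in this comparison also passed with no filter (0.00302), by DESeq2 (0.0452) and by limma-voom (0.0405), and was -0.16 (0.0726) without replicate 1 of CD8.1; the cause was not tested. Low counts limit genes such as Gcnt1, Fut7, Plpp1, Spns2 and Tmem2, and 3 pools a group limit every test.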
